A study of Mus musculus with 16 samples.

Results

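Brain endothelial cells that had lost YAP and TAZ were compared 3 days after an experimental stroke with such cells taken after sham surgery. The comparison used the 8 libraries labelled YT-iKO among the 16 of the series, 4 after middle cerebral artery occlusion (MCAo) and 4 after sham surgery, and covered every gene of the count table. YT-iKO mice carried floxed alleles of Yap (gene symbol Yap1) and of Wwtr1, the gene of TAZ, together with Pdgfb-iCreERT2 (Pdgfb-iCreER-eGFP in the study's methods), a transgene whose Pdgfb promoter gives endothelial cells a Cre recombinase that tamoxifen activates. CTRL mice were littermates with the same floxed alleles and no Cre, and mice of both genotypes received tamoxifen before surgery. The occlusion lasted 30 min and was followed by reperfusion, and RNA was extracted 72 hours after surgery from cells sorted from tissue of sham brains or of the ischemic territory. The age of the mice is not given in the labels. The sort took cells that were DAPI-, CD45- and CD31+, that is viable, non-leukocyte cells with the endothelial surface protein PECAM1. Each library pooled tissue of several mice, so that the spread between libraries is a spread between pools. The 4 MCAo and 4 sham pools of CTRL mice entered the same model and are given only beside the YT-iKO response.

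YAP and TAZ are coactivators of transcription that have no DNA-binding domain of their own and act mainly through TEAD factors. The Hippo kinases LATS1 and LATS2 keep them out of the nucleus, and cell stretch, flow and matrix stiffness release them. In vessels they are known for their part in sprouting, junction assembly and barrier formation. Brain endothelium exposed to ischemia and to cytokines such as IL-6, IL-1 and TNF is known to turn on selectins and other adhesion molecules on venules and acute-phase genes under STAT3.

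The 8 libraries held between 11418262 and 23074547 counts, and the total counts did not separate the groups (exact permutation test, two-sided, p = 0.914, n = 4 and 4; the smallest p that 70 assignments allow is 0.0286). Counts are given below as CPM, counts scaled to a common library size after adjustment by TMM, a scaling that aligns the bulk of genes between libraries. Genes of 1561 olfactory, vomeronasal and taste receptors, which endothelium is not known to use, gave an even background of 0.157, 0.164, 0.571 and 0.253 CPM per kb of exon in YT-iKO sham libraries 1 to 4, and of 0.148, 0.578, 0.445 and 0.0308 CPM per kb in YT-iKO MCAo libraries 1 to 4. It was high in sham library 3 and in MCAo libraries 2 and 3, lowest in MCAo library 4, and did not separate the groups (exact permutation test, p = 0.714). TMM factors moved with it, from 0.746 to 1.40 over the MCAo libraries, whereas factors from the 9123 genes that averaged 10 CPM or more lay between 0.984 and 1.04. The endothelial label was borne out by Cldn5, Cdh5 and Pecam1, each at no less than 592 CPM in all 8 libraries, and Ptprc, the gene of CD45, reached at most 10.1 CPM. As bulk RNA was measured, fewer cells of a kind and less RNA per cell cannot be told apart.

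Yap1 and Wwtr1 were below the CTRL level in every YT-iKO library and did not respond to stroke by the test. Yap1 was at 55.7, 59.2, 38.6 and 43.9 CPM in the sham and 48.5, 37.1, 40.2 and 63 CPM in the MCAo libraries of YT-iKO, against 80.5 to 133 CPM over the 8 CTRL libraries. Wwtr1 was at 74.7, 95.9, 45 and 72.8 CPM in the sham and 83.6, 75.6, 60.7 and 136 CPM in the MCAo libraries, against 234 to 438 CPM in CTRL. The ranges of the genotypes do not overlap for either gene, and the counts cover whole genes, deleted and retained exons alike. MCAo changed Yap1 by -0.06 ± 0.22 and Wwtr1 by 0.30 ± 0.27 on the log2 scale (± SE; adjusted p = 1.00 for each, edgeR), and the groups overlap for both.

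Stroke raised many more genes than it lowered. Of 31085 genes tested, 99 differed between MCAo and sham at an adjusted p under 0.1 (edgeR's quasi-likelihood test, Benjamini-Hochberg), which is 0.318% of the genes. These are the genes named as called below, and of them 86 rose (0.277%) and 13 fell (0.0418%). Among those that rose, 40 were at least 4-fold higher and 46 between 2-fold and 4-fold higher, and 9 of the 13 that fell were lower by at least 2-fold. The 4 MCAo libraries lay wholly apart from the 4 sham libraries for 90 of the 99, while 399 of all genes tested were so separated (1.28%). All but 3 of the 99 are protein-coding, and none lies on the X or Y chromosome. Without adjustment 937 genes had p under 0.05.

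The number of genes called moved with the settings. DESeq2 called 213 genes higher and 54 lower, and 98 of the 99 were among them. With factors from the abundant genes the split was 382 higher and 152 lower, and with the receptor genes as a covariate 334 and 248. Limma-voom was run with sample quality weights, which let libraries count unequally in the fit, and is named limma-voom throughout. It called 2861 genes higher (9.2%) and 2765 lower (8.89%), and these hold 89 of the 99. The median log2 fold change of the 86 genes that rose was 1.97, and it was 1.77 with factors from the abundant genes, 1.6 with the covariate and 1.07 with limma-voom, whose median over all genes was 0.20. A fit of only those 9123 genes, called abundant genes below, took library sizes, TMM factors and the spread from these genes alone. Its fold changes are therefore scaled otherwise than the CPM values given beside them. This fit, named the test of abundant genes below, gave 920 calls (10.1%), 591 higher (6.48%) and 329 lower (3.61%), including all 79 of the 99 that are abundant. A model with the 8 YT-iKO libraries alone called 17 genes, 16 higher and 1 lower, all of them among the 99.

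**Figure D1:**
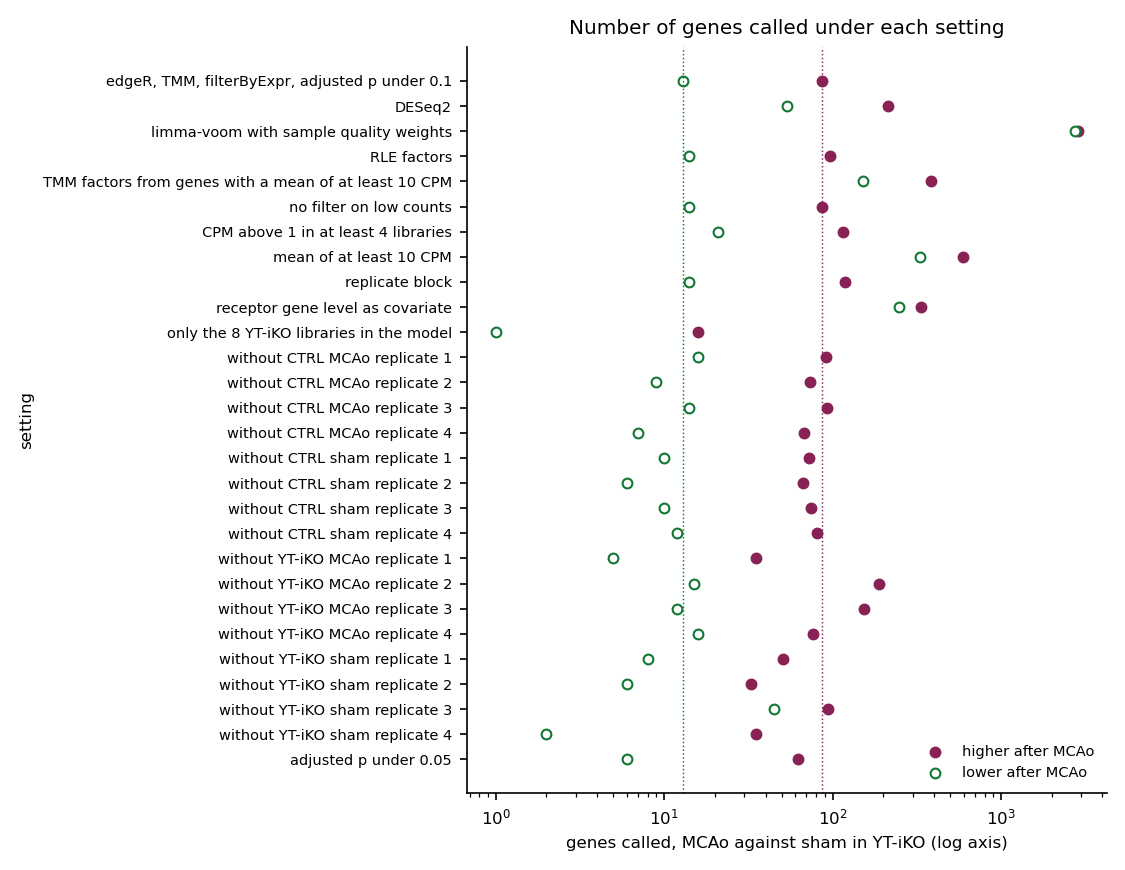
Genes called in YT-iKO endothelium under each setting, on a log axis, with filled points for genes higher after MCAo and open points for genes lower after MCAo. Dotted lines mark the 86 and 13 genes of the first row, and higher calls outnumber lower ones in every setting shown.

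Calls also depended on single libraries. Without YT-iKO sham library 4, 63 of the 99 calls were lost, without YT-iKO MCAo library 1 or YT-iKO sham library 2, 60 each, and without YT-iKO sham library 1, 41, whereas without YT-iKO MCAo library 2 only 1 was lost. With each of the 16 libraries left out in turn, 31 genes kept their call, 29 that rose and 2 that fell. A gene named below kept its call in all 16 of these fits unless a left-out library is given with it. The model with the 8 YT-iKO libraries alone ended most calls, and of the genes named below it kept those of Ace, Ackr1, Apod, Atp8b1, Ch25h, Cpe, Gm9946, Lrg1, Rgs16, Scgb3a1, Sele, Selp, Socs3, Synpo, Tmem176a and Zfp36l2. Among calls of genes named below, limma-voom ended those of Tubb6, Bst1, Spp1, Adamts9, Il4ra and Mcam, factors from the abundant genes ended those of Npnt and Nckap5, DESeq2 that of Ccl19-ps1, no filter that of Tubb6, and a minimum of 1 CPM in 4 libraries those of Spp1 and Ccl19-ps1. The size of the response differed between pools. The 86 genes that rose lay a median of 2.25 and 2.44 above the sham mean, on the log2(CPM + 1) scale, in MCAo libraries 1 and 4, and of 1.06 and 0.81 in MCAo libraries 2 and 3, which have the higher background. In each of the 4 libraries all 86 lay above the sham mean. MCAo libraries 1 and 4 held the highest 2 values for 84 of the 86, and their mean was a median of 2.66 times that of libraries 2 and 3, or 1.64 times with factors from the abundant genes. The 13 genes that fell were a median of 0.83 to 1.22 below the sham mean in the 4 MCAo libraries. Sham library 3 was itself a median of 0.51 below the sham mean for these 13 genes, and without it 94 genes were called higher and 45 lower. MCAo libraries 1 and 4 were also the deeper ones, with 23074547 and 21510934 counts beside 11418262 and 12531666. The part of background and depth in this spread was not tested. The model with the receptor genes as a covariate called 582 genes, all 99 among them, and does not test that part either.

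**Figure D2:**
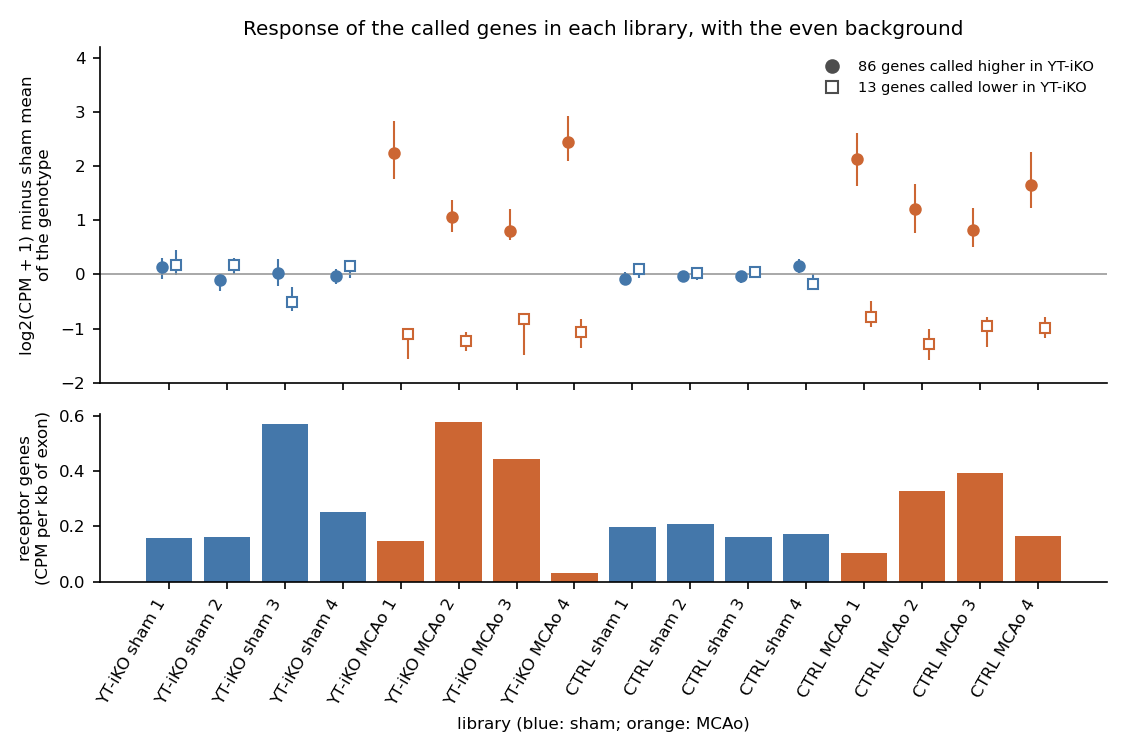
Upper panel: median and quartiles, over the genes called in YT-iKO, of log2(CPM + 1) minus the sham mean of the same genotype, for each of the 16 libraries (filled, the 86 genes that rose; open, the 13 that fell). Lower panel: the even background from receptor genes in the same libraries, in CPM per kb. The higher genes stand lowest in MCAo libraries 2 and 3 of either genotype, where the background is high.

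Among called genes of at least 1 CPM, the largest increase was in Lrg1. This gene encodes a secreted leucine-rich glycoprotein that modifies TGF-beta signalling in vessels. It was at 9.69, 3.37, 5.05 and 3.36 CPM in the sham and 266, 51.6, 51.2 and 262 CPM in the MCAo libraries. The groups do not overlap, MCAo libraries 1 and 4 stood far above the other two, and the log2 fold change was 4.86 ± 0.60 (adjusted p = 0.000300, edgeR). Serpina3n, an acute-phase inhibitor of serine proteases, went from 3.33, 1.01, 2.98 and 1.58 CPM to 127, 6.52, 6.61 and 45 CPM, a log2 fold change of 4.37 ± 0.71 (adjusted p = 0.00526). MCAo libraries 1 and 4 were again far above 2 and 3, which lay close above the highest sham value, and near-identical family members of this gene leave its exact level uncertain.

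Ch25h makes 25-hydroxycholesterol, an oxysterol with antiviral and chemotactic roles. It was at 4.001, 1.91, 2.46 and 1.12 CPM in the sham and 45.1, 11.7, 17.1 and 77.3 CPM in the MCAo libraries. Ackr1, the chemokine receptor of venules that carries chemokines across the endothelium, was at 4.19, 2.64, 2.79 and 1.71 CPM and 71.1, 13.1, 14.8 and 57.4 CPM. Socs3, the feedback inhibitor of JAK and STAT signalling, was at 7.57, 5.45, 6.93 and 5.86 CPM and 140.1, 39.98, 37.6 and 127 CPM. In each of these genes every MCAo library stood above every sham library, MCAo libraries 1 and 4 were highest, and the log2 fold changes were 3.97 ± 0.57, 3.77 ± 0.54 and 3.74 ± 0.41 (adjusted p = 0.00161, 0.00161 and 0.000189, edgeR). Selp, the gene of P-selectin, which tethers rolling leukocytes, was at 1.74, 1.46, 3.76 and 3.43 CPM and 60.4, 16.1, 10.04 and 46.3 CPM (3.69 ± 0.62 on the log2 scale, adjusted p = 0.00683). Atp8b1, which encodes a phospholipid flippase, was at 14.6, 11.9, 13.9 and 9.49 CPM and 170.4, 84.6, 57 and 219 CPM (3.41 ± 0.39, adjusted p = 0.000189).

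Lao1, an L-amino acid oxidase gene, was at 10.7, 4.05, 11.5 and 3.36 CPM and 135, 7.89, 17 and 128 CPM. Here MCAo library 2 lay below 2 of the sham libraries, and the call (log2 fold change 3.28 ± 0.65, adjusted p = 0.0283) was lost without YT-iKO MCAo library 1 (0.182), YT-iKO sham library 2 (0.210) or YT-iKO sham library 4 (0.182). Cd14, the co-receptor for bacterial lipopolysaccharide, was at 2.17, 2.58, 2.59 and 1.45 CPM and 45.9, 8.96, 6.93 and 20.7 CPM without overlap between the groups (3.23 ± 0.51, adjusted p = 0.00413). Ace, which encodes angiotensin-converting enzyme, was at 77.8, 63.5, 53.6 and 64.4 CPM and 1025, 233, 200 and 900.4 CPM, with MCAo libraries 1 and 4 again highest and no overlap (3.18 ± 0.45, adjusted p = 0.00161). Scgb3a1, the gene of a small secreted protein, was at 5.30, 4.10, 4.34 and 2.83 CPM and 37.3, 19.6, 19.4 and 74.2 CPM, again with no overlap (3.17 ± 0.37, adjusted p = 0.000189). The pseudogene Ccl19-ps1 was also called, with a mean below 1 CPM in the MCAo libraries and close copies in the genome, and its call was lost in 15 of the 16 fits with 1 library left out (adjusted p up to 0.421, without YT-iKO sham library 4).

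**Figure D3:**
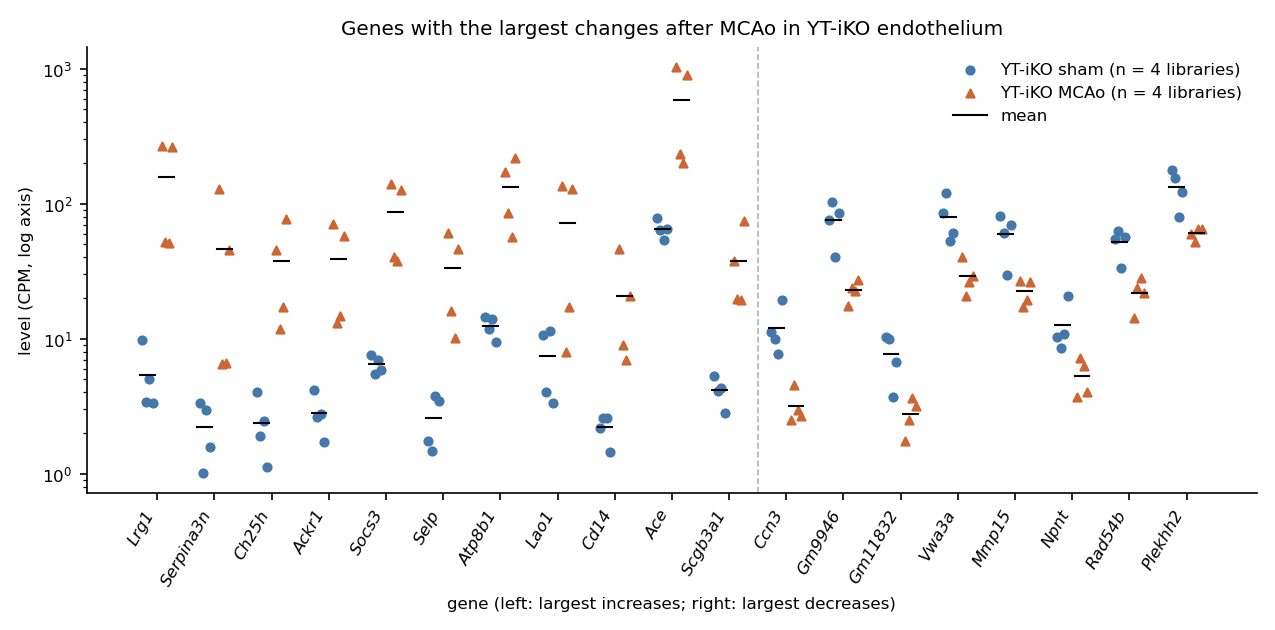
CPM on a log axis of genes with the largest increases (11, left) and decreases (8, right) among called genes of at least 1 CPM, in the 4 sham (circles) and 4 MCAo (triangles) libraries of YT-iKO, with the mean as a bar. Apart from Lao1, the groups do not overlap for any of these genes, and the increases split into 2 high and 2 low MCAo libraries.

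Genes of the acute phase and of IL-6 and STAT3 signalling made up the group with the highest median change. Of 28 members tested, 6 rose and none fell (Socs3, Lrg1, Ch25h, Lcn2, Serpina3n and Il4ra), and the median log2 fold change of the list was 0.93 beside -0.02 for all genes tested. Of its 16 abundant members, 14 rose in the test of abundant genes and none fell. Beside the members already given, Lcn2, the gene of the iron-binding acute-phase protein lipocalin-2, was at 12.7, 6.18, 9.59 and 3.95 CPM in the sham and 112, 18.2, 24.3 and 68.2 CPM in the MCAo libraries, with no overlap (2.77 ± 0.45 on the log2 scale, adjusted p = 0.00526, edgeR). Il4ra, which encodes the IL-4 receptor alpha chain, went from 42.8 ± 6.22 to 169 ± 122 CPM (mean ± SD, n = 4 and 4, as in all values of this form; 1.98 ± 0.41, adjusted p = 0.0396), and its call was lost in 4 of the 16 fits with 1 library left out (adjusted p up to 0.250, without YT-iKO MCAo library 1). Receptors and factors of the pathway had smaller fold changes. Stat3 (from 177 ± 38.9 to 300 ± 118 CPM), the receptor chains Il6ra (from 71.5 ± 16.5 to 113 ± 37.6 CPM), Il6st (from 242 ± 57.9 to 398 ± 154 CPM) and Osmr (from 221 ± 54.7 to 328 ± 135 CPM) and the factor Bcl3 (from 23.5 ± 6.02 to 44.3 ± 18.6 CPM) did not pass the test of all genes, and each rose in the test of abundant genes, by 0.66 ± 0.09, 0.60 ± 0.09, 0.63 ± 0.15, 0.49 ± 0.10 and 0.83 ± 0.11 on the log2 scale.

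Promoters of the genes that rose were read for the sequence TTCNNNGAA, a form of the site that STAT factors bind, in the 250 bases before the transcription start on either strand (RefSeq, build GRCm38.p6). It stood in the promoters of 9 of the 61 genes with a promoter entry (14.75%), beside 7.657% of the 16979 genes tested with an entry and 8.13% of all 27025 genes with one. A TEAD motif, GGAATG, stood in 12 of the 61 (19.67%), beside 13.74% of the genes tested with an entry. These shares are a description and were not tested, and a match is not a binding site. Of the 6 called members of the acute-phase list, all of which have an entry, only Socs3 holds TTCNNNGAA. Its promoter and those of 3 called genes outside the list that hold it are printed as examples, with the match in capitals and the strand of the gene as the printed strand. Socs3 lies on the minus strand (chr11:117969367-117969616), Sele on the plus strand (chr1:164047984-164048233), Scgb3a1 on the plus strand (chr11:49663345-49663594) and Itih4 on the plus strand (chr14:30886226-30886475).
Socs3: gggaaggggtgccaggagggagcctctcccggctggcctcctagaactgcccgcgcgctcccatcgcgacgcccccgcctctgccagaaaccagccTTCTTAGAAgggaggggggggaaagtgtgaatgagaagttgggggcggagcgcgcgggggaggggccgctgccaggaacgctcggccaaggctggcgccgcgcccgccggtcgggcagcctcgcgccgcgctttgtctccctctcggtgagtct
Sele: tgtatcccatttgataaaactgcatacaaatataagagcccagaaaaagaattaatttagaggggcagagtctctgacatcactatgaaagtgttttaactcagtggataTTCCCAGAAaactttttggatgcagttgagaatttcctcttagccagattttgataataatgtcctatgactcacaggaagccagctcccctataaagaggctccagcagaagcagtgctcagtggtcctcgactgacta
Scgb3a1: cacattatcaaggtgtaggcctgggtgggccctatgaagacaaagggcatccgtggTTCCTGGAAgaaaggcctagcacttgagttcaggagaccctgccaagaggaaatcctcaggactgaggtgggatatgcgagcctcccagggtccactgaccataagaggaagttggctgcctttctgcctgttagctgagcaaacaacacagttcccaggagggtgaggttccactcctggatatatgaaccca
Itih4: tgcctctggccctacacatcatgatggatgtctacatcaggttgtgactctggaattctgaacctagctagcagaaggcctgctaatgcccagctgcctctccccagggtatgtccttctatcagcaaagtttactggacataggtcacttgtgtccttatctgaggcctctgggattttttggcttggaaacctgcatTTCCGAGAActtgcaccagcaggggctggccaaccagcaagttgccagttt
The matches begin 154, 140, 194 and 51 bases before the start, in that order. Itih4, the gene of an acute-phase inhibitor heavy chain, went from 3.13 ± 1.67 to 20.4 ± 22.6 CPM (2.72 ± 0.57 on the log2 scale, adjusted p = 0.0460, edgeR), a call that was lost in 4 of the 16 fits with 1 library left out (adjusted p up to 0.549, without YT-iKO MCAo library 1).

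Of 18 leukocyte adhesion molecules tested, 3 rose and none fell (Sele, Ackr1 and Selp), while limma-voom called 3 higher and 3 lower, and the median of the list was 0.19. Sele, which encodes E-selectin, was at 4.58, 5.62, 8.49 and 3.16 CPM in the sham and 79.3, 28.9, 23.1 and 53.5 CPM in the MCAo libraries, with no overlap (3.08 ± 0.43 on the log2 scale, adjusted p = 0.00157, edgeR). Icam1, the ligand for leukocyte integrins on which firm arrest rests, was at 46.6 ± 2.22 CPM in the sham and 77.5 ± 37.1 CPM in the MCAo libraries, and rose in the test of abundant genes alone, by 0.60 ± 0.18 on the log2 scale (adjusted p = 0.0550). Vcam1, the other such ligand, was at 73.7 ± 14.2 CPM in the sham and 95.3 ± 21.1 CPM in the MCAo libraries (adjusted p = 1.00). Pecam1 rose in the test of abundant genes by 0.42 ± 0.10 (adjusted p = 0.0236, edgeR), but stood at -0.075 with limma-voom. In all 7 of the 15 abundant members rose in that test and none fell.

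Chemokine and cytokine genes were mostly at low counts, and 1 of 21 tested rose. This was Cxcl10, the interferon-inducible ligand of CXCR3, at 1.01, 1.01, 1.43 and 1.12 CPM in the sham and 2.91, 5.39, 11.9 and 3.68 CPM in the MCAo libraries. The groups do not overlap, the high library here was MCAo library 3, and the log2 fold change was 2.38 ± 0.42 (adjusted p = 0.0120, edgeR), a call that was lost without YT-iKO sham library 2 (0.102) and with the 8 YT-iKO libraries alone (0.318). Cxcl12, the abundant chemokine of capillaries that holds leukocytes at the vessel wall, went from 2725 ± 769 to 1678 ± 406 CPM and fell in the test of abundant genes, by 0.72 ± 0.13 on the log2 scale (adjusted p = 0.00320). Ccl2, the chief attractant of monocytes, was at 0.438 ± 0.187 CPM in the sham and 1.27 ± 0.469 CPM in the MCAo libraries with no overlap between the groups and did not pass the test (adjusted p = 1.00).

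NF-kappaB feedback and TNF receptor genes had 1 call in 24. Tnfrsf1a, the main TNF receptor, went from 51.9 ± 14.5 to 139 ± 71 CPM (1.42 ± 0.33 on the log2 scale, adjusted p = 0.0876, edgeR), and the call was lost in 11 of the 16 fits with 1 library left out (adjusted p up to 0.392, without YT-iKO sham library 4). Of 20 abundant members, 8 rose in the test of abundant genes and none fell, among them Tnfrsf1b, the second TNF receptor, and the NF-kappaB subunits Nfkb1, Nfkb2 and Relb, with log2 fold changes of 0.75 ± 0.13, 0.28 ± 0.07, 0.30 ± 0.10 and 0.45 ± 0.10, although Nfkb1 and Nfkb2 stood at -0.11 and -0.039 with limma-voom, which called 2 of the 24 higher and 2 lower. Interferon-stimulated genes had 1 call in 40, with a median of 0.15. Ifitm1, which encodes a membrane protein that blocks virus entry, was at 2.27, 1.24, 1.88 and 1.51 CPM and 13.6, 5.01, 5.31 and 16.6 CPM (2.55 ± 0.40, adjusted p = 0.00413), with close relatives in Ifitm2 and Ifitm3, which rose in the test of abundant genes. None of 22 genes of MHC class I antigen presentation was called in either test.

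In the cGAS-STING pathway, which turns cytosolic DNA into an interferon response, 1 of 15 genes rose. Sting1, the gene of the adaptor STING, was at 4.05, 3.26, 5.90 and 6.39 CPM in the sham and 25.9, 16.3, 9.84 and 35 CPM in the MCAo libraries. Every MCAo library exceeded every sham library, and the log2 fold change was 2.16 ± 0.33 (adjusted p = 0.00295, edgeR). With the 8 YT-iKO libraries alone it was 2.02 and was not called (adjusted p = 0.112). Ifi204, a DNA sensor gene of the interferon-inducible family, was at 2.01 ± 0.861 CPM in the sham and 5.07 ± 1.10 CPM in the MCAo libraries without overlap and did not pass the test (adjusted p = 0.193). Complement genes had 1 call in 21, Serping1, the gene of the C1 inhibitor, which went from 2.03 ± 0.559 to 6.05 ± 1.40 CPM (1.58 ± 0.32, adjusted p = 0.0339) and was lost in 4 of the 16 fits with 1 library left out (adjusted p up to 0.201, without YT-iKO sham library 2).

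Vwf, the gene of von Willebrand factor, which binds platelets and is stored with P-selectin, was at 869, 785, 679 and 824 CPM in the sham and 5155, 2359, 1924 and 6614 CPM in the MCAo libraries. No MCAo library came near the sham range, and the log2 fold change was 2.35 ± 0.38 (adjusted p = 0.00526, edgeR). Of 25 coagulation and fibrinolysis genes 2 rose, and 6 of 13 abundant members rose in the test of abundant genes, including Procr (0.72 ± 0.19), the receptor of protein C, and Tfpi (0.63 ± 0.16), the inhibitor of tissue factor. Of 28 vasoactive genes 2 rose, Ace and Ptgs2, while DESeq2 called 7, all higher, and limma-voom 5 higher and 5 lower. Without YT-iKO MCAo library 2 or library 3 the count was 6, all higher. Ptgs2, which encodes the inducible cyclooxygenase COX-2, was at 30.9, 38.3, 23 and 36.4 CPM and 157, 75.8, 59.6 and 166 CPM, with no overlap (1.84 ± 0.34, adjusted p = 0.0164). In the test of abundant genes 8 of 17 rose and 2 fell. Among them were Edn1 (1.07 ± 0.20), the gene of the vasoconstrictor endothelin-1, Ednra (0.86 ± 0.22), a receptor for it, and Ece1 (0.55 ± 0.15, but -0.023 with limma-voom), the enzyme that makes it, whereas Edn3 was lower (-0.66 ± 0.17).

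Matrix genes rose mainly in the test of abundant genes. Of 32 basement membrane and matrix genes, 2 rose in the test of all genes and 11 of 22 abundant members in the test of abundant genes, none fell in either, and the median was 0.58. Mgp, the gene of matrix Gla protein, an inhibitor of calcification and of BMP, went from 40.7 ± 13.4 to 176 ± 100.2 CPM (2.11 ± 0.40 on the log2 scale, adjusted p = 0.0197, edgeR) and was lost without YT-iKO MCAo library 1 (0.123) or YT-iKO sham library 2 (0.128). Lamb1, a laminin beta chain gene, went from 12.6 ± 3.60 to 45.4 ± 27.4 CPM (1.85 ± 0.39, adjusted p = 0.0437) and was lost in 4 of the 16 fits with 1 library left out (adjusted p up to 0.241, without YT-iKO sham library 2). Fn1, which encodes fibronectin, was at 2744 ± 346 CPM in the sham and 6274 ± 2481 CPM in the MCAo libraries with no overlap between the groups (adjusted p = 0.255) and rose by 1.08 ± 0.11 in the test of abundant genes (adjusted p = 3.13e-05). Col4a1 and Col4a2, which encode the chains of the main basement membrane collagen, rose in that test by 0.72 ± 0.20 and 0.62 ± 0.19, with adjusted p = 0.0373 and 0.0637, and stood at -0.12 and -0.20 with limma-voom.

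Of 24 matrix proteases and inhibitors, 2 rose and 1 fell. Adamts4, which encodes an aggrecan-cleaving protease, was at 2.60, 2.36, 7.45 and 3.23 CPM and 47, 12.7, 10.9 and 52.7 CPM without overlap (2.99 ± 0.50 on the log2 scale, adjusted p = 0.00683, edgeR). Adamts9, a protease gene of the same family, went from 72.4 ± 18 to 284 ± 202 CPM (1.97 ± 0.42, adjusted p = 0.0555) and was lost in 5 of the 16 fits with 1 library left out (adjusted p up to 0.333, without YT-iKO MCAo library 1). The genes A730049H05Rik and Gm15737, both called higher (2.26 ± 0.43 and 2.07 ± 0.41) and both lost in 3 of the 16 fits with 1 library left out, overlap Adamts9 on the other strand, and whether the counting used strand is not given in the sources used here, so that their reads and those of Adamts9 cannot be told apart. The same holds for Tmem176a and Tmem176b, which overlap each other, and for Cadm3, whose annotated span overlaps Ackr1 on the same strand. Of 34 sprouting and tip-cell genes 1 rose, Mcam, the gene of the adhesion molecule CD146, which went from 28 ± 4.47 to 106 ± 75.8 CPM (1.92 ± 0.41, adjusted p = 0.0468) and was lost in 5 of the 16 fits with 1 library left out (adjusted p up to 0.280, without YT-iKO MCAo library 1). In the test of abundant genes 8 of 24 rose and 2 fell, while limma-voom called 1 of the 34 higher and 6 lower. In the former test Angpt2, the Tie2 ligand that destabilises vessels, rose by 0.55 ± 0.14 (adjusted p = 0.0297, edgeR) and Nrp1, a VEGF co-receptor of tip cells, fell by 0.35 ± 0.09 (adjusted p = 0.0221, edgeR).

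Limma-voom, which called 18.1% of all genes tested, 9.2% higher and 8.89% lower, gave other splits for several lists. It called 9 of 28 acute-phase genes higher and 1 lower, and 9 of 22 venous markers higher and 1 lower. Of 32 matrix genes 12 were higher and 2 lower. Of 21 chemokine and cytokine genes it called 9 higher and 2 lower, and of 21 complement genes 7 higher and 2 lower. Of 40 interferon-stimulated genes 6 were higher and 1 lower, a share near that of all genes. By contrast 10 of 26 endothelial identity genes were called, all lower, and of 14 capillary markers 1 was higher and 7 lower. Of 21 arterial markers 3 were higher and 7 lower, and of 24 YAP and TAZ targets 2 higher and 3 lower. Of 25 coagulation and fibrinolysis genes 4 were higher and 1 lower, and of 15 genes of the cGAS-STING pathway 3 higher and 2 lower. Of 29 hypoxia and glycolysis genes 4 were higher and 3 lower. Of 20 genes of iron handling 2 were higher and 1 lower, and of 26 of the ER stress response 2 were higher. The shares called in iron handling and the ER stress response lie below that of all genes. Those in coagulation and fibrinolysis genes and in YAP and TAZ targets lie near it. As many were higher as lower among 24 matrix proteases and inhibitors (3 each) and 31 BMP and TGF-beta genes (4 each). The same held for the 18 genes that the study names for these libraries (2 each).

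The counts of several lists in the test of all genes grew when 1 library was left out. Without YT-iKO MCAo library 2, 11 acute-phase genes were called in place of 6, 5 matrix genes in place of 2, 5 proteases and inhibitors in place of 3, 4 genes of iron handling in place of 1 and 3 complement genes in place of 1. Without YT-iKO MCAo library 3, 5 proteases and inhibitors and 3 genes of iron handling were called. Without YT-iKO sham library 3 the counts were 5 matrix genes and 3 complement genes. Of 31 BMP and TGF-beta genes 3 were then higher and 1 lower in place of 2 higher. Of the barrier transporters 1 was higher and 2 lower in place of 1 higher. Other fits gave fewer calls. Without YT-iKO MCAo library 1 or YT-iKO sham library 2 (40 and 39 calls over all genes), no matrix, complement or iron handling gene was called. Without YT-iKO sham library 1 or 4 (59 and 37 calls), 1 matrix gene and no complement or iron handling gene was called.

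**Figure D4:**
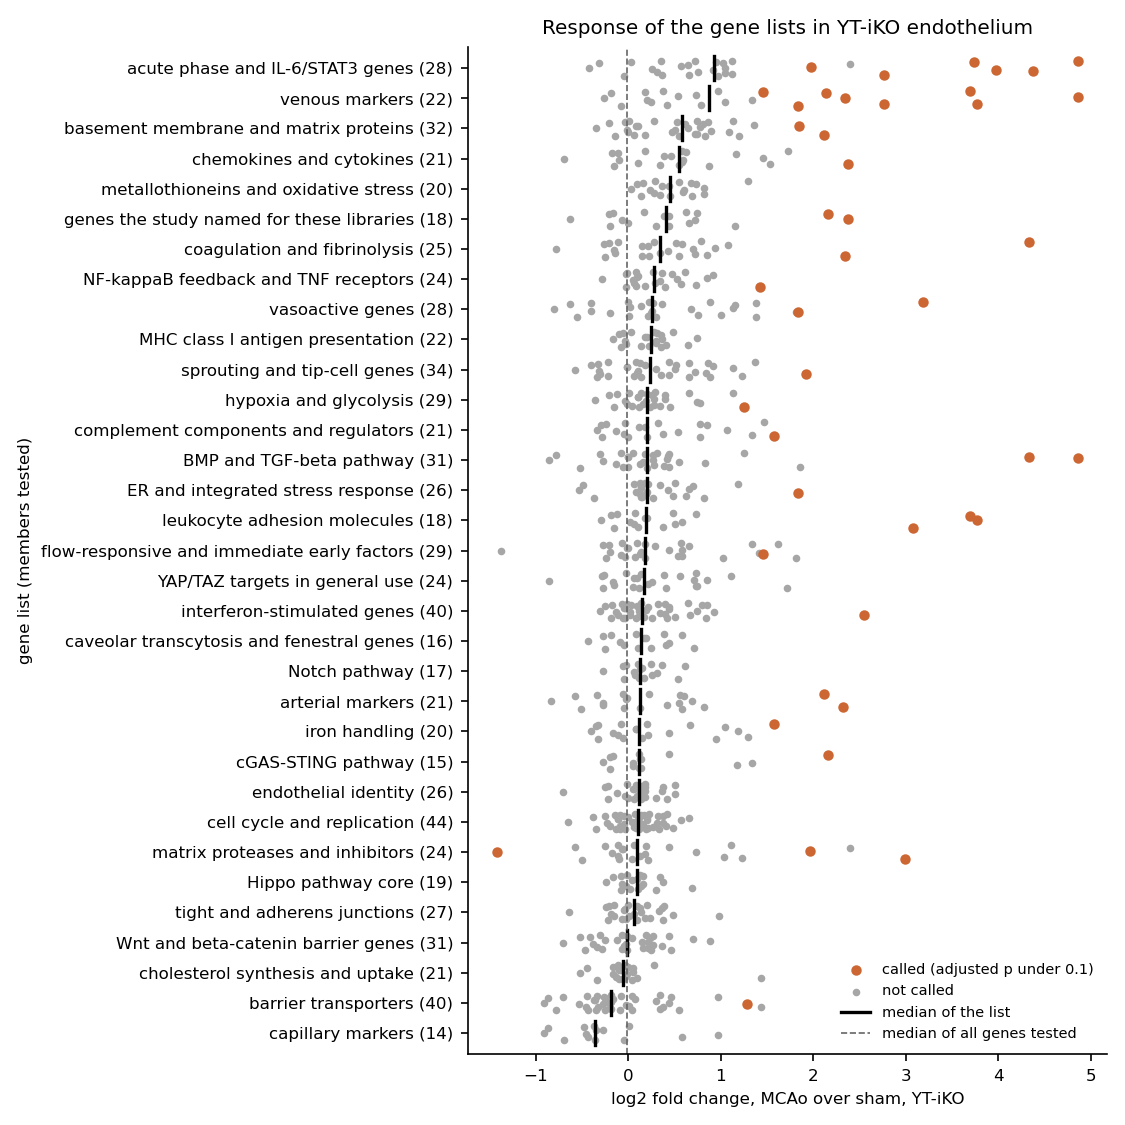
Log2 fold change, MCAo over sham in YT-iKO, of the tested members of 33 gene lists, with called members in orange, the median of each list as a black bar and the median of all genes tested as a dashed line. The acute-phase list and the venous markers stand at the top with medians of 0.93 and 0.88, and the capillary markers at the bottom with -0.36.

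Of the zonation markers, those of veins held most calls. Of 22 venous markers 8 rose and none fell, with a median of 0.88, and 14 of 21 abundant members rose in the test of abundant genes. The 8 are Lrg1, Ackr1, Lcn2, Vwf, Selp, Ptgs2, Tmem252 and Ier3, of which 6 also stand in the lists above. Tmem252, the gene of a small membrane protein, went from 57.7 ± 13.9 to 254 ± 173 CPM (2.14 ± 0.42 on the log2 scale, adjusted p = 0.0283, edgeR) and was lost without YT-iKO MCAo library 1 (0.154), YT-iKO sham library 2 (0.146) or YT-iKO sham library 4 (0.201). Nr2f2, the transcription factor that specifies veins, was at 56.6 ± 8.49 CPM in the sham and 97.3 ± 51.4 CPM in the MCAo libraries and passed the test of abundant genes alone (0.65 ± 0.21, adjusted p = 0.0786, but -0.084 with limma-voom). Of 21 arterial markers 2 rose, Mgp and Gja4. Gja4, which encodes the gap-junction protein connexin 37, was at 12.1, 8.71, 7.78 and 11.5 CPM and 105, 26.9, 15.7 and 52.5 CPM with no overlap (2.32 ± 0.42, adjusted p = 0.0158), and its call was lost without YT-iKO sham library 2 (0.117).

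None of 14 capillary markers was called in the test of all genes, 3 of the 14 had a fold change above 0, and of 12 abundant members 6 fell and 1 rose in the test of abundant genes. Those that fell were Slc22a8, an organic anion transporter gene (from 459.7 ± 136 to 245 ± 43.9 CPM), Car4, which encodes a carbonic anhydrase of the capillary surface (from 307 ± 82.9 to 169 ± 47.6 CPM), Cxcl12, Ivns1abp, Mfsd2a and Lrp8. Mfsd2a, the gene of the lipid transporter that restrains transcytosis, was lower by 0.46 ± 0.15 (adjusted p = 0.0869, edgeR). The member that rose was Slc38a5 (0.84 ± 0.18), a glutamine transporter gene that also stands among the venous markers. Of 26 endothelial identity genes none was called, 1 abundant member rose (Pecam1) and 1 fell, Bsg, which encodes basigin and went from 4598 ± 797 to 2816 ± 388 CPM (-0.74 ± 0.19 on the log2 scale, adjusted p = 0.0226).

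Few barrier genes were called in the test of all genes. None of 27 tight and adherens junction genes was called, with a median of 0.07, and of 22 abundant members 2 rose and 1 fell, whereas limma-voom called 6 of the 27, all lower. Cldn5, the gene of the main claudin of the blood-brain barrier, was at 1215, 723, 592 and 1077 CPM and 1444, 665, 919 and 1618 CPM with overlap, and its log2 fold change was 0.37 ± 0.32 (adjusted p = 1.00, edgeR). Ocln, which encodes occludin, was lower by 0.26 ± 0.08 in the test of abundant genes (adjusted p = 0.0472). Of 40 barrier transporters 1 rose, Abcb1b, a drug efflux pump gene with a close paralog in Abcb1a, which went from 6.85 ± 1.16 to 16.7 ± 5.18 CPM (1.29 ± 0.25, adjusted p = 0.0261) and was lost in 4 of the 16 fits with 1 library left out (adjusted p up to 0.172, without YT-iKO sham library 4). The median of the transporters was -0.19, and of 35 abundant members 8 fell and 4 rose in the test of abundant genes, while limma-voom called 13 of the 40 lower and 1 higher. Slc19a3, a thiamine transporter gene, fell without overlap between the groups, by 0.72 ± 0.13 (adjusted p = 0.00310), and Abca1, the cholesterol exporter gene, rose by 1.30 ± 0.21 (adjusted p = 0.00119). Genes of the Wnt and beta-catenin barrier programme had no call in 31, and of 26 abundant members 4 fell (Notum, Nkd1, Axin2 and Tcf7, which are known as targets or effectors of the pathway) and 2 rose, with log2 fold changes from -0.68 ± 0.18 for Notum to 0.76 ± 0.19 for Wnt5a. Caveolar and fenestral genes had no call in 16, with 2 abundant members higher and 3 lower. Limma-voom called 1 Wnt gene higher and 7 lower, and 5 caveolar genes, all lower.

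Stress and metabolic genes gave single calls. Xbp1, the factor of the unfolded protein response, went from 80.6 ± 15.6 to 288 ± 156 CPM (1.84 ± 0.34 on the log2 scale, adjusted p = 0.0197, edgeR), was lost without YT-iKO sham library 4 (0.123) and was the 1 call among 26 genes of the ER and integrated stress response. Fth1, the ferritin heavy chain gene with many processed pseudogenes, went from 191 ± 56.7 to 573 ± 303 CPM (1.58 ± 0.36, adjusted p = 0.0871), was lost in 12 of the 16 fits with 1 library left out (adjusted p up to 0.457, without YT-iKO MCAo library 1) and was the 1 call among 20 genes of iron handling. Pfkfb3, a driver of glycolysis in endothelium, went from 35.9 ± 7.94 to 85.5 ± 35.7 CPM (1.25 ± 0.29, adjusted p = 0.0976), was lost in 9 of the 16 fits with 1 library left out (adjusted p up to 0.559, without YT-iKO sham library 4) and was 1 of 29 hypoxia and glycolysis genes. Hif1a rose in the test of abundant genes by 0.63 ± 0.10 (adjusted p = 0.000742). The immediate early gene Ier3 went from 26.2 ± 2.36 to 72.1 ± 38 CPM (1.46 ± 0.33, adjusted p = 0.0832), was lost in 8 of the 16 fits with 1 library left out (adjusted p up to 0.406, without YT-iKO sham library 4) and was the 1 call among 29 flow-responsive and immediate early genes, of which limma-voom called 2 higher and 4 lower and the test of abundant genes 5 of 26 higher and none lower. No gene of 20 on metallothioneins and oxidative stress, of 21 on cholesterol synthesis and uptake, of 17 on the Notch pathway or of 44 on the cell cycle was called, although all 20 of the first list had a fold change above 0 (14796 of all 31085 genes did). Of these lists limma-voom called 6 Notch genes, all lower, and 8 cell cycle genes higher and 2 lower. It called 1 gene of the first list higher and 2 lower, and none on cholesterol. DESeq2 called 1 gene of the first list and 1 on cholesterol, both higher, and no Notch or cell cycle gene. In the test of abundant genes, 1 of 14 of the first list, 1 of 15 on cholesterol and 1 of 15 Notch genes rose. There 1 of 15 cell cycle genes fell, beside 10.1% of all abundant genes called.

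Of the 13 genes that fell, only Mmp15 stands in a list. Ccn3, a matricellular gene of the CCN family, was at 11.3, 10, 7.71 and 19.3 CPM in the sham and 2.51, 4.51, 2.98 and 2.68 CPM in the MCAo libraries, fell by 1.93 ± 0.36 on the log2 scale (adjusted p = 0.0186, edgeR) and was lost without YT-iKO MCAo library 1 (0.122) or YT-iKO sham library 4 (0.155). Gm9946, a long non-coding RNA gene, was at 75.2, 103, 39.9 and 85.1 CPM and 17.4, 23.8, 22.5 and 27.4 CPM and fell by 1.74 ± 0.27 (adjusted p = 0.00373). Vwa3a, which encodes a protein with von Willebrand factor A domains, was at 85.7, 119, 52.5 and 60.9 CPM and 40.2, 20.7, 26.3 and 29 CPM and fell by 1.45 ± 0.25 (adjusted p = 0.00928). Gm9946 and Vwa3a kept their call with each library left out, and in all of these genes every MCAo library lay below every sham library. Mmp15, the gene of a membrane-type metalloprotease, was at 80.8, 60.4, 29.5 and 69.2 CPM and 26.8, 17.2, 19.4 and 26.3 CPM, with sham library 3 nearest to the MCAo libraries. Its log2 fold change was -1.42 ± 0.26 (adjusted p = 0.0182, edgeR), and the call was lost without YT-iKO sham library 4 (0.114).

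Npnt, which encodes the integrin ligand nephronectin, was at 10.4, 8.48, 10.9 and 20.8 CPM and 3.66, 7.21, 6.28 and 3.99 CPM (-1.26 ± 0.28 on the log2 scale, adjusted p = 0.0859, edgeR) and was lost in 9 of the 16 fits with 1 library left out (adjusted p up to 0.651, without YT-iKO sham library 4). Plekhh2, a cytoskeletal adaptor gene, was at 177, 154, 80.01 and 122 CPM and 59.4, 51.8, 65.4 and 64.9 CPM (-1.14 ± 0.24, adjusted p = 0.0437) and was lost without YT-iKO sham library 2 (0.104) or YT-iKO sham library 4 (0.172). Rad54b, a gene of recombination repair, was at 54.9, 63.1, 33.6 and 56.2 CPM and 14.1, 23.6, 28 and 21.6 CPM (-1.25 ± 0.26, adjusted p = 0.0368) and was lost without YT-iKO MCAo library 1 (0.137), YT-iKO sham library 2 (0.128) or YT-iKO sham library 4 (0.188). The non-coding gene Gm11832 lies within Rad54b on the other strand, so that their reads cannot be told apart, and it was at 10.2, 10, 3.69 and 6.72 CPM and 1.75, 2.51, 3.63 and 3.18 CPM (-1.47 ± 0.34, adjusted p = 0.0871), a call that was lost in 10 of the 16 fits with 1 library left out (adjusted p up to 0.405, without YT-iKO MCAo library 1). In each of the 4 genes the MCAo libraries lay below the sham libraries. The others that fell were Akr1c14, Bche, Nckap5, Shtn1 and Dpp4, with log2 fold changes between -1.02 and -0.87. The first 4 of these calls were lost in 6, 7, 9 and 5 of the fits with 1 library left out. Dpp4, the gene of the peptidase CD26, went from 64.5 ± 12.8 to 35.3 ± 6.75 CPM and was lost in 8 of the 16 fits with 1 library left out (adjusted p up to 0.189, without YT-iKO sham library 4).

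Among other genes that rose and kept their call with each library left out were Apod, which encodes the lipid carrier apolipoprotein D (from 14.9 ± 1.17 to 70.9 ± 26.6 CPM), Cpe, the gene of the prohormone-processing carboxypeptidase E (from 26.8 ± 5.96 to 134 ± 72.7 CPM), Upp1, the gene of uridine phosphorylase (from 3.30 ± 0.957 to 15.5 ± 7.97 CPM), Litaf, an endosomal gene inducible by lipopolysaccharide (from 13.8 ± 3.33 to 62.6 ± 38.8 CPM), Rgs16, a gene of a brake on G-protein signalling (from 4.22 ± 0.304 to 14.1 ± 4.76 CPM), and Zfp36l2, whose protein speeds the decay of AU-rich mRNAs (from 74.3 ± 10.7 to 223 ± 93.9 CPM). Their log2 fold changes were 2.25 ± 0.28, 2.32 ± 0.34, 2.23 ± 0.37, 2.18 ± 0.36, 1.74 ± 0.27 and 1.59 ± 0.29, in that order. Also in this group were Synpo, Disp2, Tmem176a and Tmem176b, with log2 fold changes of 2.74 ± 0.40, 1.98 ± 0.35, 2.55 ± 0.38 and 1.85 ± 0.33. Calls that held in few of the fits with 1 library left out include that of Spp1, the osteopontin gene, which was lost in 12 of the 16 fits with 1 library left out (adjusted p up to 0.948, without YT-iKO MCAo library 1), and that of Tubb6, a tubulin gene, which was lost in 13 of the 16 fits with 1 library left out (adjusted p up to 0.744, without YT-iKO MCAo library 1). The groups overlap for both of them.

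Further genes that rose stand in no list and lost their call without some library. Il17ra, a receptor chain for interleukin-17, went from 39.4 ± 3.77 to 124 ± 67.6 CPM (1.66 ± 0.31 on the log2 scale, adjusted p = 0.0197, edgeR) and was lost without YT-iKO sham library 4 (0.122). Cd38 and Bst1, neighbouring genes of related ectoenzymes that consume NAD, went from 14 ± 1.97 to 42 ± 23.5 CPM and from 1.69 ± 0.233 to 5.16 ± 2.02 CPM, with log2 fold changes of 1.59 ± 0.33 and 1.61 ± 0.35. For both, every MCAo library lay above every sham library, and Cd38 was lost without YT-iKO MCAo library 1 (0.154), YT-iKO sham library 2 (0.164) or YT-iKO sham library 4 (0.182) and Bst1 lost in 5 of the 16 fits with 1 library left out (adjusted p up to 0.361, without YT-iKO MCAo library 1). Casp4, the gene of the caspase that senses intracellular lipopolysaccharide, went from 5.67 ± 1.43 to 14 ± 5.90 CPM (1.30 ± 0.29, adjusted p = 0.0712) and was lost in 9 of the 16 fits with 1 library left out (adjusted p up to 0.214, without YT-iKO sham library 4). Pde4b, which encodes a phosphodiesterase of cAMP, went from 28.1 ± 7.66 to 67.7 ± 20.9 CPM (1.27 ± 0.26, adjusted p = 0.0327) and was lost without YT-iKO MCAo library 1 (0.115), YT-iKO sham library 2 (0.124) or YT-iKO sham library 4 (0.266).

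Kit, the gene of the receptor for stem cell factor, went from 6.54 ± 2.87 to 33.9 ± 24.1 CPM (2.38 ± 0.46 on the log2 scale, adjusted p = 0.0248, edgeR) and was lost in 4 of the 16 fits with 1 library left out (adjusted p up to 0.158, without YT-iKO sham library 4). Plxnb2, a semaphorin receptor gene, went from 25.7 ± 5.55 to 90.3 ± 45.4 CPM (1.81 ± 0.34, adjusted p = 0.0191) and was lost without YT-iKO sham library 2 (0.101) or YT-iKO sham library 4 (0.120). Cd248, the gene of endosialin, which is better known from pericytes and fibroblasts, went from 6.86 ± 2.13 to 26.7 ± 13.9 CPM (1.96 ± 0.38, adjusted p = 0.0232) and was lost without YT-iKO MCAo library 1 (0.128), YT-iKO sham library 2 (0.124) or YT-iKO sham library 4 (0.173). In all 3 genes the MCAo libraries lay above the sham libraries. Emilin1, a gene of elastic fibres, and Igfbp4, an inhibitor of insulin-like growth factors, had log2 fold changes of 2.58 ± 0.49 and 2.62 ± 0.52 and were lost in 4 of the 16 fits with 1 library left out (adjusted p up to 0.144, without YT-iKO sham library 2) and lost without YT-iKO MCAo library 1 (0.218), YT-iKO sham library 1 (0.154) or YT-iKO sham library 2 (0.222), in that order.

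Of 24 targets of YAP and TAZ in general use none was called, the median log2 fold change was 0.17, and of 16 abundant members 4 rose and 1 fell in the test of abundant genes. Ccn1 and Ccn2, the targets used most widely, went from 12.6 ± 14.8 to 10.4 ± 10.6 CPM and from 9.43 ± 4.39 to 12.3 ± 10.2 CPM, with overlap between the groups. Myof (1.01 ± 0.17), Crim1 (0.61 ± 0.10), Igfbp3 (1.53 ± 0.48) and Axl (0.74 ± 0.22) rose in the test of abundant genes and Tgfb2 (-0.80 ± 0.23) fell. Of 19 genes of the Hippo pathway none was called, and Sav1, a scaffold of the kinases, and Amot, a binding partner of YAP, passed the test of abundant genes with 0.26 ± 0.08 and -0.29 ± 0.10, 2 of 17 members beside 10.1% of all abundant genes. With limma-voom Sav1 stood at -0.18, and 1 of the 19 was called higher and 4 lower. Of 18 genes that the study names for these libraries 2 rose in the test of all genes, Sting1 and Cxcl10, and of the 10 abundant ones 5 rose and 1 fell in the test of abundant genes. As the study chose that list on these samples, it is no independent evidence of direction.

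The response of YT-iKO endothelium was set beside that of CTRL endothelium, which shares no library with it but shares the model and its estimate of the spread. All 99 genes had the same direction in CTRL, as had 54.7% of all genes tested, and 42 of the 99 were also called in CTRL, where 67 genes were called in all (0.216%). The 86 genes that rose had a median log2 fold change of 1.97 in YT-iKO and 1.66 in CTRL, and the 13 that fell of -1.25 and -1.13. The change was larger in YT-iKO for 82 of the 99, genes that were chosen on it, while of the 67 genes called in CTRL 42 had the larger change in CTRL. The test of the difference between the genotypes called no gene at an adjusted p under 0.1 (0%) by edgeR, DESeq2 or limma-voom, and 116 genes had an unadjusted p under 0.05 in edgeR.

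Among the 99 genes, 6 had an unadjusted p under 0.05 for this difference, Socs3, Lao1, Cxcl10, Gja4, Gimap4 and Wee1, and in each the change was larger in YT-iKO. The calls of Gimap4 and Wee1 in YT-iKO (1.57 ± 0.30 and 1.18 ± 0.23) were lost in 3 and 2 of the 16 fits with 1 library left out. Cxcl10 was at 0.894, 1.48, 1.40 and 1.43 CPM in the CTRL sham and 2.28, 2.13, 1.22 and 1.82 CPM in the CTRL MCAo libraries, a log2 fold change of 0.52 ± 0.42, so that the difference of the responses was 1.86 ± 0.59, with an approximate 95% interval from 0.72 to 3.01 and an unadjusted p of 0.00434 (edgeR). Socs3 was at 15.5, 13.1, 16.2 and 17.5 CPM and 138, 55.5, 45.6 and 94.7 CPM in CTRL (2.42 ± 0.39), a difference of 1.31 ± 0.53 with an interval from 0.27 to 2.35 (unadjusted p = 0.0215, edgeR). Its mean was 6.45 CPM after sham surgery and 86.2 CPM after MCAo in YT-iKO and 15.6 and 83.6 CPM in CTRL. Gja4 differed by 1.41 ± 0.58, with an interval from 0.28 to 2.54 (unadjusted p = 0.0234, edgeR). None of these passed the adjustment, with adjusted p = 1.00 for each.

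Over all genes the smallest p for the difference was that of Podn, the gene of a small leucine-rich proteoglycan of the matrix, at 3.37, 1.80, 4.60 and 4.08 CPM in the sham and 2.81, 4.76, 3.24 and 1.18 CPM in the MCAo libraries of YT-iKO and at 2.11, 1.99, 1.86 and 1.95 CPM and 6.97, 9.78, 6.71 and 9.002 CPM in those of CTRL. Its log2 fold change was -0.21 ± 0.35 in YT-iKO and 2.03 ± 0.36 in CTRL, a difference of -2.24 ± 0.50 (adjusted p = 1.00, edgeR), which was called, at an adjusted p of 0.0175, in the model that holds the receptor genes as a covariate. The response of Sting1 was 2.16 ± 0.33 in YT-iKO and 2.36 ± 0.33 in CTRL on the log2 scale, and the interval of the difference ran from -1.09 to 0.67. For Vwf the values were 2.35 ± 0.38 and 1.98 ± 0.38, with an interval from -0.64 to 1.37, and for Selp 3.69 ± 0.62 and 4.09 ± 0.64, with an interval from -2.03 to 1.23.

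**Figure D5:**
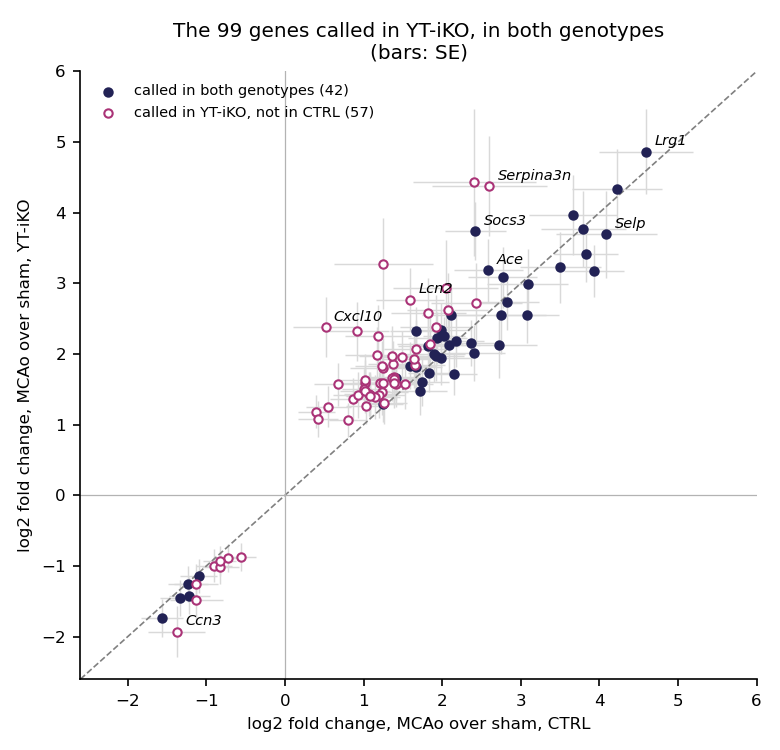
Log2 fold change (± SE) after MCAo in YT-iKO against that in CTRL for the 99 genes called in YT-iKO, filled where the gene was also called in CTRL (42) and open where it was not (57). All points lie in the quadrants of the same direction, and 82 are farther from 0 in YT-iKO than in CTRL.

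Markers of other cell types gave no call in edgeR's test of all genes. Over 11 lists, for mural cells (pericytes and smooth muscle), fibroblasts, glia and neurons (astrocytes, oligodendrocytes, neurons), blood and myeloid cells (red cells, lymphocytes, monocytes and neutrophils, microglia and macrophages) and the choroid plexus with ependyma, no member passed the test of all genes, and the summed level of no list separated the groups (exact permutation tests, two-sided, p between 0.200 and 0.943, n = 4 and 4). Summed markers of microglia and macrophages lay between 28.7 and 59.1 CPM in the sham and between 27.5 and 54.5 CPM in the MCAo libraries, and those of monocytes and neutrophils between 9.38 and 25.5 CPM and between 2.49 and 21 CPM. Those of the pericytes, the mural cells that share the basement membrane of endothelium, lay between 604 and 1006 CPM in the sham and between 572 and 1391 CPM in the MCAo libraries. Of 10 pericyte markers 9 had a fold change above 0, and their median log2 fold change was 0.60 beside -0.02 for all genes tested. Of 9 smooth muscle markers 2 had a fold change above 0, with a median of -0.10. With limma-voom 4 of 10 fibroblast, 3 of 12 monocyte and neutrophil and 2 of 14 microglia and macrophage markers were called higher and 2 of 9 smooth muscle markers lower, while no pericyte marker was called. That fit called 9.2% of all genes tested higher and 8.89% lower, and with so few markers a list these counts set no list apart. Of 8 abundant pericyte markers 2 rose in the test of abundant genes, Pdgfrb (0.79 ± 0.26) and Abcc9 (0.71 ± 0.21), and of 4 of smooth muscle 1 fell, Pln (-0.45 ± 0.14). What pericyte RNA added to the matrix genes above was not tested.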

How the data were processed

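Endothelial RNA of 16 libraries was analysed from 1 table of gene counts. The deposited values are whole-number counts per gene, which the authors made from reads aligned with STAR 2.7.8a to GRCm38 with GENCODE M12. The counting program and its use of strand are not given in the sources used here. Symbols and positions came from GENCODE M21 (36861 of 37003 genes matched). Counts were fitted with edgeR 4.0.16 (TMM, filterByExpr, quasi-likelihood test) over 4 groups of 4 libraries, with Benjamini-Hochberg adjustment and a threshold of 0.1. SEs were derived from the F statistics. Counts were also simulated, independently for each library, from each gene's mean and spread in these data. Changed genes averaged at least 1 CPM and changed alike in all 4 YT-iKO MCAo libraries, and CTRL had no response. There edgeR recovered 30 of 100 genes changed 2-fold and 75 of 100 changed 4-fold, with 9.48% false calls. The uneven response of the MCAo libraries was not simulated, so these rates may not hold for the data. Alternatives used DESeq2 1.42.0, limma 3.58.1 (voom with sample quality weights) and other factors, filters, covariates and library sets. Every called gene could be named, and the 12 largest increases and 8 largest decreases of at least 1 CPM are given (apart from items not reported here) in every library, with called, most abundant and lowest-p members of each list. The comparison, the lists and the tests were chosen with earlier results of these data known.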

Additional observations from a re-analysis of the deposited data

Results flagged for a closer look

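In 11 of 280 groups of 4 libraries that were checked, the following values of named genes stood apart from the others by Dixon's test at the 95% level on the log2(CPM + 1) scale, which is fewer than the 1 in 20 groups that chance alone gives. In the sham libraries, Casp4 was low in library 3 (3.56 CPM, others 6.01 to 6.59), as were Nkd1 (161 CPM, others 305 to 343) and Nr2f2 (43.9 CPM, others 59.5 to 61.9). Sham library 1 was high in Wnt5a (65.7 CPM, others 49.8 to 51.8), Ccn1 (34.9 CPM, others 4.83 to 5.53) and Ccl19-ps1 (0.0482 CPM, others listed at 0). In the MCAo libraries, Serping1 was low in library 3 (3.95 CPM, others 6.70 to 6.82), and Axin2 (103 CPM, others 163 to 172) and Mfsd2a (87.2 CPM, others 169 to 183) were low in library 2. Casp4 was high in MCAo library 4 (22.8 CPM, others 10.2 to 11.6), and Ccn1 was high in MCAo library 1 (26.3 CPM, others 4.51 to 6.02).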

How the results depend on the processing

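The 99 calls became 267 with DESeq2, 5626 with limma-voom, 534 with factors from the abundant genes, 920 with these genes tested alone, 582 with the receptor genes as a covariate and 17 with the 8 YT-iKO libraries alone. With 1 library left out they ran from 37 (without YT-iKO sham library 4) to 203 (without YT-iKO MCAo library 2). The difference between the genotypes gave 1 call with the receptor genes as a covariate. The cause of these changes was not tested.

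Of 138 genes in the text, 75 of them called, no called gene changed direction in any setting, and 16 others did in 23 of 3568 values. With limma-voom the log2 fold changes were -0.075 for Pecam1, -0.11 for Nfkb1, -0.039 for Nfkb2, -0.12 for Col4a1, -0.20 for Col4a2, 0.17 for Podn, -0.023 for Ece1, -0.11 for Cldn5, -0.17 for Cdh5, -0.38 for Ccn2, -0.22 for Wwtr1, -0.18 for Sav1 and -0.084 for Nr2f2. With 1 library left out, Podn ran from -0.52 to 0.054, Ccn1 from -1.37 to 0.97, Ccn2 from -0.43 to 0.71, Yap1 from -0.24 to 0.0060 and Ptprc from -0.31 to 0.43.

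With the replicate number as a block 132 genes were called, 97 of the 99 among them, Spp1 and Ccl19-ps1 lost their call, and Ptprc stood at -0.18. The numbers were not taken as pairs, since only 2 of 4 same-numbered pairs of YT-iKO sham and MCAo libraries correlated above 0.1 (lowest -0.29, median 0.06, highest 0.61). In these, 1 sham library correlated best with its own number. This check did not cover pairs across the genotypes. MCAo libraries 1 and 4 held the highest 2 values for 84 of the 86 genes that rose in YT-iKO, and for 77 of the same genes in CTRL. Libraries of 11418262 counts and more limit what can be seen of genes below 1 CPM, and intervals rest on 4 pools a group.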
